A study of Mus musculus with 9 samples.

Results

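The 10 microRNAs (miRNAs) described here are known from tissues other than the macrophage. mmu-miR-1a-3p, mmu-miR-133a-3p and mmu-miR-206-3p are known from muscle, and mmu-miR-124-3p, mmu-miR-128-3p, mmu-miR-9-3p and mmu-miR-219a-5p from neurons and glia. mmu-miR-192-5p and mmu-miR-194-5p are known from gut and liver epithelium, and mmu-miR-150-5p from mature lymphocytes. The species prefix mmu, for mouse, is left off below. They were listed by name for the tissues they are known from, and they are 10 of the 1101 mature miRNAs listed in at least 1 library. The small RNA came from exosomes, the vesicles that cells release into their medium, here collected by ultracentrifugation from RAW264.7, a mouse macrophage line grown with fetal bovine serum. The 3 groups were untreated cells, cells given silica for 24 h and cells given silica for 48 h, with 3 libraries each. All groups shared the one cell line and the serum medium, and the culture time of the untreated cells, the silica dose and the depletion of serum vesicles are not given in the sources used here.

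A miRNA is cut from a hairpin precursor, whose arms give a 5p and a 3p strand, and it represses messenger RNAs that pair with its seed near the 5′ end. Tissue-enriched miRNAs are transcribed mainly in one lineage: miR-124 is the classic neuronal miRNA, miR-219 promotes oligodendrocyte maturation, and miR-1 and miR-133 are made together in heart and skeletal muscle. Vesicles carry such strands outside cells, and serum holds vesicles and miRNAs of many tissues.

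The mature strands are shown because reads are assigned to a member or a relative by these letters. RefSeq sequences on GRCm38.p6 (mm10) were matched for 6 of the 10 members, and capitals mark the seed, bases 2 to 8. The 6 printed members have 6 different seeds; of the members not printed, miR-1a-3p is known to belong to the same seed family as miR-206-3p.
miR-206-3p: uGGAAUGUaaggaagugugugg
miR-128-3p: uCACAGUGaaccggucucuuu
miR-9-3p: aUAAAGCUagauaaccgaaagu
miR-219a-5p: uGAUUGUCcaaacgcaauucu
miR-192-5p: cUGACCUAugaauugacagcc
miR-194-5p: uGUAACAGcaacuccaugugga

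Relatives with a bearing on the values are the opposite strands of miR-9, miR-219a, miR-128 and miR-194 hairpins and the paralog miR-215-5p. The paralog shares its seed with miR-192-5p and differs from it at 3 of 21 bases. The 3p strands of the miR-194 hairpins differ from each other at 4 of 22 bases and have different seeds. The treatment of reads with several matches, and any use of strand, were not given in the sources used here, so counts of such relatives are uncertain.
miR-9-5p: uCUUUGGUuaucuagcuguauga
miR-128-1-5p: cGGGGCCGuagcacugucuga
miR-219a-1-3p: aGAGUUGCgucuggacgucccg
miR-194-1-3p: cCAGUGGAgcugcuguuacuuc
miR-194-2-3p: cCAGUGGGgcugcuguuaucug
miR-215-5p: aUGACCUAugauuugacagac

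Several of these strands can come from more than 1 locus. On GRCm38.p6, miR-128-3p is encoded by Mir128-1 at chr1:128202361-128202430, in an intron of R3hdm1, and by Mir128-2 at chr9:112118636-112118711, in an intron of Arpp21. miR-219a-5p is encoded by Mir219a-1 at chr17:34024983-34025092, in an exon of the annotated transcript Gm26940, and by Mir219a-2 at chr2:29845631-29845727, between genes. Mir194-2 at chr19:6264643-6264728 and Mir192 at chr19:6264844-6264932 lie between genes on the same strand, 115 bases apart. miR-9-3p has 3 loci, on chromosomes 3, 7 and 13, and miR-206-3p has 1, at chr1:20679010-20679082.

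The libraries held 2158418 to 8331451 counts of mature miRNA, which were 28.01% to 44.66% of all their counted reads. Levels below are CPM, mature miRNA counts per 1000000 after TMM scaling. A count of 3, taken as the limit that a count of 0 allows, equalled 0.314 to 1.55 CPM in single libraries; this limit and the intervals of count ratios cover counting error only. Untreated library 2 and 48 h library 2 stood apart, with 829 and 912 mature miRNAs listed against 486 to 713 in the other 7. 24 h library 3 stood apart at the other end, with the fewest mature counts (2158418), the lowest mature share (28.01%, against at least 35.09% elsewhere) and the fewest miRNAs listed (486). It was the highest library for miR-1a-3p, miR-124-3p, miR-150-5p, miR-192-5p and miR-194-5p, and the part of its depth and mature share in those values was not tested. The 8 macrophage and myeloid miRNAs were all listed, miR-511-3p in 4 libraries and the other 7 in every library, and summed to 71500 to 109000 CPM. Most of that sum was miR-146a-5p (mean 49713 CPM) and miR-21a-5p (37924 CPM), which many cell types make. The myeloid miR-223-3p and the blood cell miR-142a-3p were at means of 126 and 74.2 CPM, so the sum alone does not identify the cell type.

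The 10 members together were a trace of the exosomal miRNA, and the group means differed by less than the spread of libraries. Their counts summed to 3681, 4226 and 4709 in the untreated libraries 1, 2 and 3, to 3513, 3824 and 2218 at 24 h, and to 3191, 6866 and 3876 at 48 h. As a share of mature miRNA this was 0.085% ± 0.0211 (SD, n = 3) for untreated cells, 0.0873% ± 0.0156 for 24 h of silica and 0.0824% ± 0.00599 for 48 h. The ranges of the 3 groups overlapped. miR-128-3p, miR-192-5p and miR-194-5p made up 84.9% to 95.7% of the sum, so the share describes these 3 more than the muscle, lymphocyte or other neuronal members. Less RNA per vesicle and fewer vesicles of one origin cannot be told apart in such bulk libraries.

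**Figure D1:**
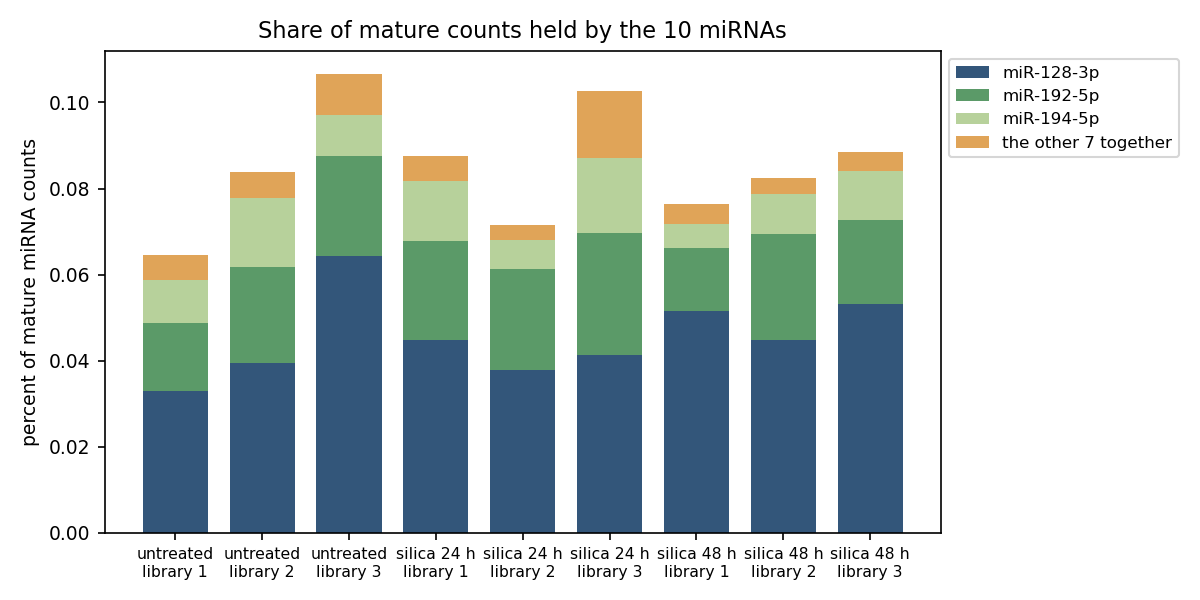
Share of mature miRNA counts (percent, stacked bars from 0) held by the 10 members in each of the 9 libraries, with miR-128-3p, miR-192-5p and miR-194-5p in their own colours and the other 7 together. The bars reach from 0.0644% to 0.107%, and the group ranges overlap.

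The members spanned from common to nearly absent. By mean CPM over the 9 libraries the order was miR-128-3p, miR-192-5p, miR-194-5p, miR-124-3p, miR-150-5p, miR-219a-5p, miR-9-3p, miR-1a-3p, miR-133a-3p and miR-206-3p. Among all 1101 mature miRNAs miR-128-3p had rank 80 and miR-192-5p rank 110. miR-124-3p, miR-150-5p, miR-219a-5p and miR-9-3p followed at ranks 216, 237, 328 and 329, and the muscle members at 556, 570 and 897. miR-128-3p stood above miR-192-5p in every library and their ranges did not meet (335 to 644 CPM against 169 to 317 CPM). The ranges of every later pair of neighbours in this order overlapped, although miR-192-5p counts were 1.39 to 3.53 times those of miR-194-5p in each library. The order is a description with no test.

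**Figure D2:**
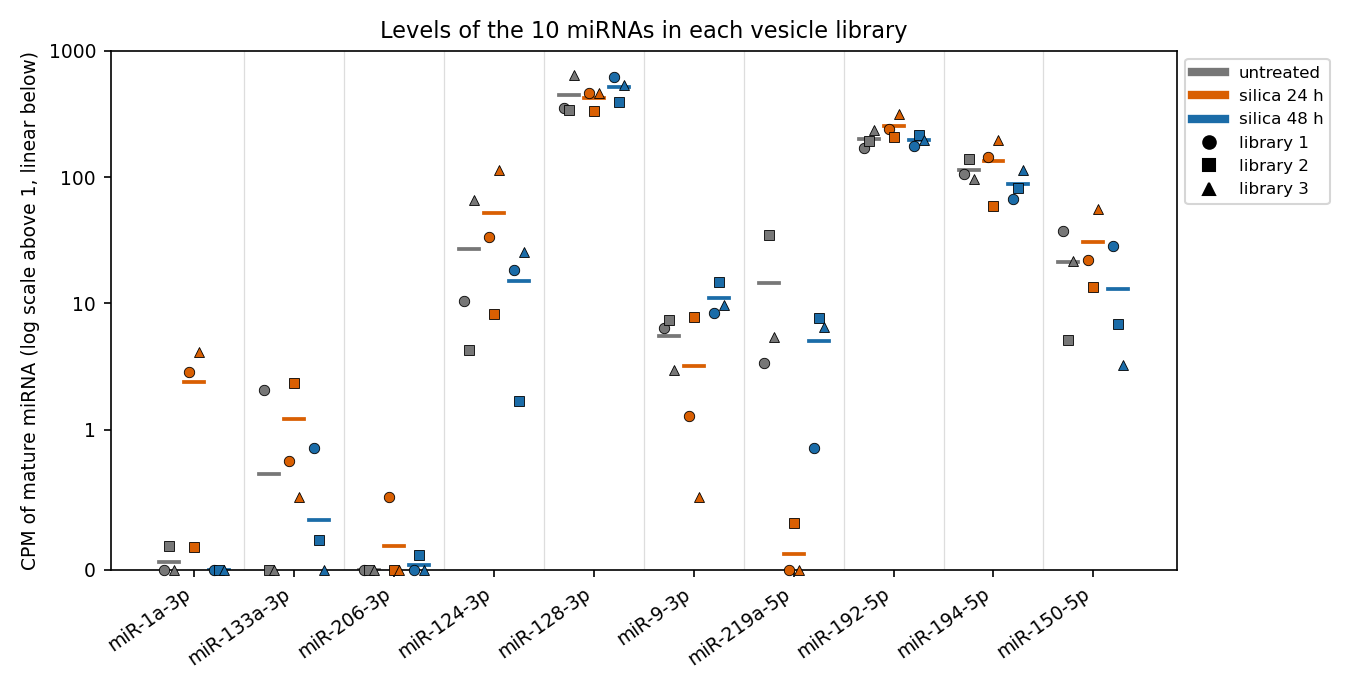
Level of each member (CPM, vertical axis, logarithmic above 1 and linear below) in each library, coloured by group, with the group mean as a line and the library number as the shape. miR-128-3p lies highest, from 335 to 644 CPM, and miR-206-3p is at 0 in 7 of the 9 libraries.

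The muscle members were at or near 0. miR-206-3p, found in skeletal muscle, had 3 counts in all, 2 in 24 h library 1 and 1 in 48 h library 2. miR-133a-3p, which promotes the division of myoblasts, had 11, 0 and 0 counts in the untreated libraries, 3, 14 and 1 at 24 h, and 3, 2 and 0 at 48 h. Its highest libraries were untreated library 1 and 24 h library 2, and the groups overlapped. miR-1a-3p, which promotes muscle differentiation, had 0, 1 and 0 counts in untreated libraries, 11, 1 and 8 at 24 h, and 0, 0 and 0 at 48 h. All but 1 of its 21 counts were thus at 24 h, mainly in libraries 1 and 3, while 24 h library 2 was level with untreated library 2.

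None of these 3 passed the filter for testing. The pooled counts of miR-1a-3p, 20 at 24 h against 1 in untreated libraries, gave a ratio of 26.4 per count of mature miRNA, with a 95% interval of 4.23 to 1090. Against 48 h, set at 3 counts over the group, the 24 h level was at least 9.77-fold higher. Leaving out single 24 h libraries gave ratios of 17.7 to 51.2 and limits of 6.53-fold to 18.9-fold, the highest of each without library 2. That interval compares these libraries and not the conditions: without the filter, edgeR gave a log2 fold change of 4.68 for 24 h against untreated (Benjamini-Hochberg adjusted p = 0.657) and -6.43 for 48 h against 24 h (adjusted p = 0.368).

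Among the neuronal members miR-128-3p, enriched in mature neurons and also made in blood cells, was the most abundant. Its level in libraries 1, 2 and 3 was 351, 340 and 644 CPM in untreated, 465, 335 and 462 CPM at 24 h, and 623, 391 and 538 CPM at 48 h. Library 2 was lowest in each group, untreated library 3 was highest of all, and the groups overlapped. The log2 fold change was -0.08 at 24 h against untreated (SE 0.5, 95% interval -1.18 to 1.02, edgeR adjusted p = 0.95), 0.22 at 48 h (-0.88 to 1.32, adjusted p = 0.997) and 0.30 for 48 h against 24 h (-0.80 to 1.40, adjusted p = 0.807).

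miR-9-3p comes from the 3p arm of the miR-9 hairpins, which are active in neural progenitors. It was at 6.33, 7.34 and 2.95 CPM in untreated libraries, 1.29, 7.79 and 0.518 CPM at 24 h, and 8.38, 14.7 and 9.68 CPM at 48 h. Every 48 h library lay above every other library, and 24 h libraries 1 and 3 were lowest. The log2 fold change was 0.97 at 48 h against untreated (SE 0.95, 95% interval -1.10 to 3.04, edgeR adjusted p = 0.997) and 1.71 against 24 h (SE 0.97, interval -0.41 to 3.83, adjusted p = 0.511), so neither difference passed the test. At 24 h against untreated it was -0.73 (adjusted p = 0.819). The opposite strand, miR-9-5p, was more abundant, with counts 4.85 to 225 times those of miR-9-3p, the lowest ratio in 48 h library 2 and the highest in 24 h library 3. Its own log2 fold changes were -0.36, -0.26 and 0.10 in the 3 comparisons, none past the test.

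miR-124-3p, the neuronal miRNA that lowers non-neuronal transcripts and is also reported in quiescent microglia, varied more between libraries than between groups. It was at 10.4, 4.27 and 65.4 CPM in untreated libraries, 33.3, 8.29 and 113 CPM at 24 h, and 18.5, 1.68 and 25.3 CPM at 48 h. Library 3 was highest and library 2 lowest in all 3 groups. The group means in that order were 26.7 ± 33.7, 51.5 ± 54.7 and 15.2 ± 12.2 CPM (SD, n = 3 each). The log2 fold change was 0.94 at 24 h against untreated (SE 1.18, 95% interval -1.64 to 3.53, edgeR adjusted p = 0.808), -0.82 at 48 h (adjusted p = 0.997) and -1.76 for 48 h against 24 h (adjusted p = 0.574). Without 24 h library 3 the first was -0.33, and without untreated library 3 the second was 0.93. Within every library number, however, 24 h lay above untreated and 48 h lay below 24 h. At 48 h against untreated, library 1 was higher (18.5 against 10.4 CPM) and the others were lower. The labels state no pairing.

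The order of library numbers seen for miR-124-3p occurred in 16 of the 453 tested miRNAs (3.53%), and any one order repeated in all groups occurred in 51 (11.3%). Of the 7 tested members, miR-124-3p was the one with a repeated order. The Rfam family mir-124, counted separately in the files as a precursor class, had 25, 3 and 159 counts in untreated libraries, 11, 20 and 86 at 24 h, and 6, 4 and 34 at 48 h. Library 3 was again highest in each group, whereas library 2 was lowest in untreated and 48 h only. Whether the number marks a shared culture or preparation is not stated in the labels. With the number as a block, edgeR gave miR-124-3p 1.07 at 24 h against untreated (SE 0.52, adjusted p = 0.332). It gave -0.594 at 48 h against untreated (SE 0.536, adjusted p = 0.982) and -1.66 for 48 h against 24 h (SE 0.533, adjusted p = 0.137). The SEs without the block were 1.18, 1.18 and 1.21. The part of the number in the precursor counts was not tested.

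**Figure D3:**
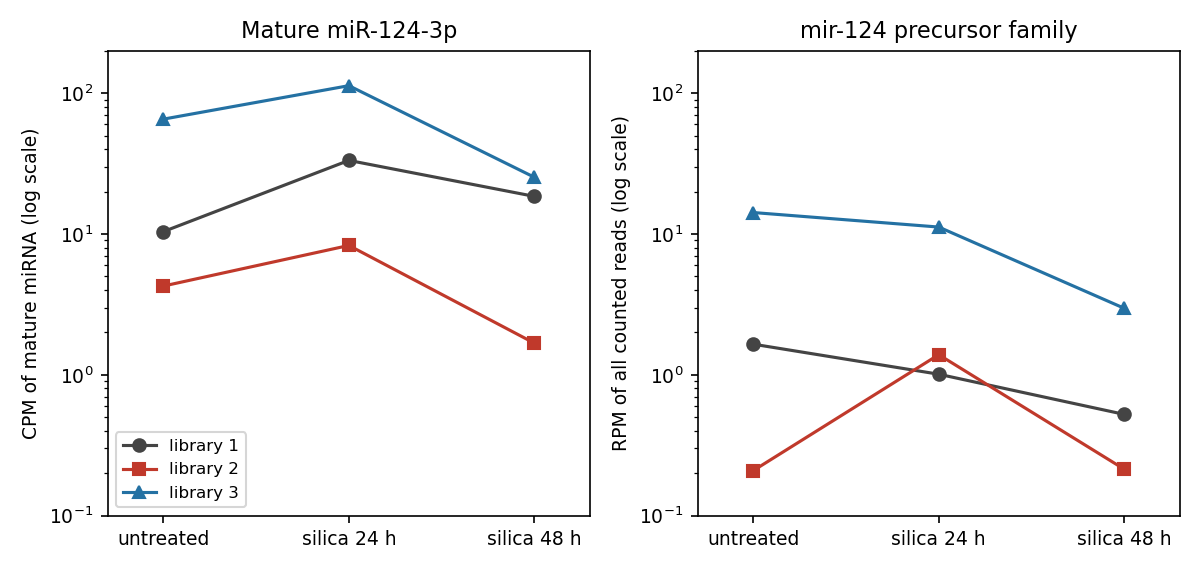
Levels of mature miR-124-3p (left, CPM) and of the mir-124 precursor family (right, RPM, counts scaled to all counted reads) on logarithmic axes, by group, with 1 line for each library number and no error bars. Library 3 is highest in every group in both panels (65.4, 113 and 25.3 CPM on the left), and library 2 is lowest throughout on the left only.

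miR-219a-5p, the oligodendrocyte miRNA, showed the widest separation between groups. It had 18, 205 and 24 counts in the untreated libraries, 0, 2 and 0 at 24 h, and 3, 73 and 28 at 48 h. In CPM this was 3.35, 35 and 5.45 in untreated, 0, 0.331 and 0 at 24 h, and 0.867, 7.65 and 6.45 at 48 h. All 24 h libraries lay below all others, and the high values were in untreated library 2 and 48 h library 2, the libraries with the most miRNAs listed, with 48 h library 3 close to the latter. The lowest of the others, 48 h library 1, had only 3 counts (0.867 CPM). A count of 0 allows 0.775 CPM in 24 h library 1 and 1.55 CPM in 24 h library 3. The 3 counts of 48 h library 1 carry counting error too. These counts therefore do not settle the order of 48 h library 1 and any 24 h library. Pooled counts were 247 in untreated against 2 at 24 h, a ratio of 93.5 per count of mature miRNA (95% interval 25.6 to 776), and 104 at 48 h against 2, a ratio of 35.5 (9.58 to 297). Untreated library 2 held 205 of the 247 counts, and without it the first ratio was 25.4 (6.61 to 217). Without 48 h library 2 the second was 23.5 (5.98 to 203).

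Between libraries, the log2 fold change at 24 h against untreated was -6.39 (SE 1.53, 95% interval -9.74 to -3.04) with an unadjusted p of 0.00141 in edgeR, and it did not pass adjustment over the 453 miRNAs (adjusted p = 0.318). Other fits of the same counts called it lower: with the library number as a block it was -6.52 (edgeR adjusted p = 0.0302), in DESeq2 -6.43 (adjusted p = 0.00449) and in edgeR without the count filter -6.41 (adjusted p = 0.00558). limma-voom gave -5.24 (adjusted p = 0.361). Without untreated library 2 the edgeR value was -4.64 (adjusted p = 0.438). Without 24 h library 2, the 24 h library with 2 counts, it was -9.21 (adjusted p = 0.339). Leaving out 24 h library 1 or 3 gave -5.97 and -6.17 (edgeR adjusted p = 0.784 and 0.9). For 48 h against 24 h the log2 fold change was 4.86 (SE 1.48, interval 1.62 to 8.09, unadjusted p = 0.00683, edgeR adjusted p = 0.404), and it was called only without the filter (4.99, adjusted p = 0.0366). For 48 h against untreated it was -1.53 (adjusted p = 0.997), and 0.21 without untreated library 2.

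The opposite arm of the Mir219a-1 hairpin did not show this pattern. miR-219a-5p can also come from Mir219a-2, so its counts cannot be assigned to either hairpin. miR-219a-1-3p was at 15.6, 5.12 and 17.5 CPM in untreated libraries, 19.4, 14.4 and 13 CPM at 24 h, and 11.3, 8.91 and 6.68 CPM at 48 h. Untreated library 2, the highest library for the 5p strand, was the lowest for this 3p strand. Its log2 fold change at 24 h was 0.29 (edgeR adjusted p = 0.902). The log2 ratio of miR-219a-5p to miR-219a-1-3p counts, each plus 1, was -5.27 ± 0.85 (SD, n = 3) at 24 h. With 5p counts of 0, 2 and 0 there, the added 1 and the 3p counts (75, 87 and 25) largely set this ratio and its SD. In the other libraries it was -0.36 ± 2.69 for untreated cells and -1.20 ± 1.84 for 48 h of silica (n = 3 each). The difference of -4.92 between 24 h and untreated had a two-sided exact permutation p of 0.1, the smallest that 3 against 3 allows. This ratio was chosen after the values were seen.

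The 3p strand of the other hairpin, miR-219a-2-3p, was counted mainly at 24 h. It had 4, 0 and 5 counts in untreated libraries, 10, 9 and 38 at 24 h, and 0, 0 and 0 at 48 h. Every 24 h library was above every other library, with 24 h library 3 the highest. The closest were 24 h library 2, at 1.49 CPM (9 counts), and untreated library 3, at 1.14 CPM (5 counts). Over the 453 tested miRNAs, 10.4% were separate and higher at 24 h against untreated. For 48 h against 24 h, 10.4% were separate and lower. Pooled, this was 57 counts against 9, a ratio of 8.37 (95% interval 4.11 to 19.2), and at least 27.8-fold higher than 48 h at 3 counts over the group. 24 h library 3 held 38 of the 57 counts, and without it the ratio was 3.33 (1.44 to 8.36) and the limit at least 11.1-fold. miR-219a-2-3p did not pass the filter, and without the filter edgeR called 48 h lower than 24 h (adjusted p = 0.0226). In that fit this strand was not among the 7 miRNAs called at 24 h against untreated. The intervals of the pooled ratios compare these libraries and not the conditions. The antisense relatives miR-219b-5p (18, 10 and 25 counts in untreated, 1, 28 and 7 at 24 h, 5, 8 and 0 at 48 h) and miR-219c-3p (0, 0 and 8, then 16, 11 and 0, then 2, 311 and 3) followed neither strand. Of the counts of miR-219c-3p, 311 lay in 48 h library 2 alone. Reads of a gene and its antisense partner cannot be told apart without strand.

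**Figure D4:**
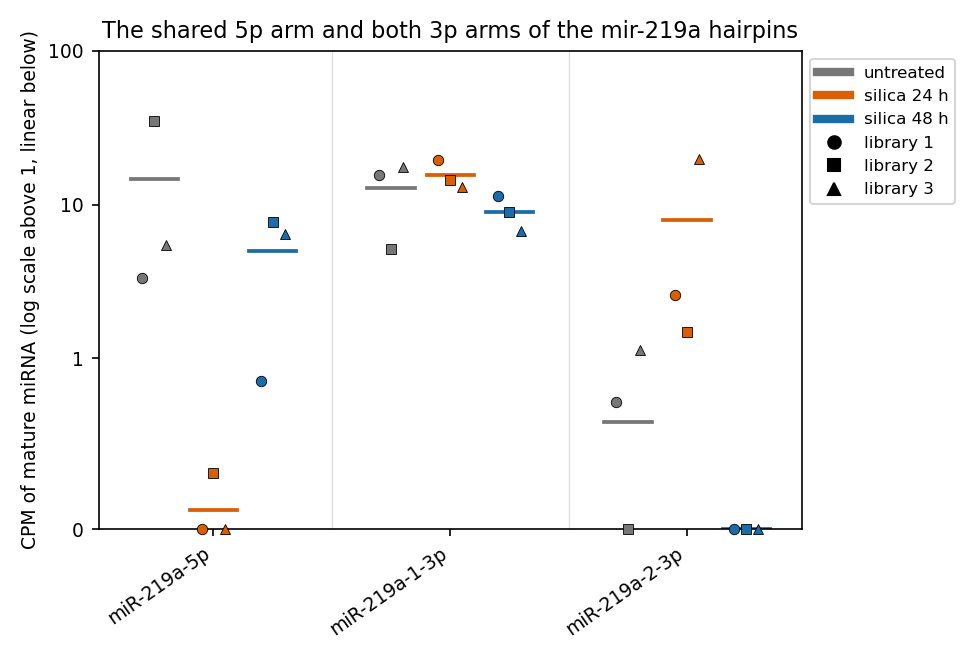
Levels of the miR-219a strands (CPM, vertical axis, logarithmic above 1 and linear below) in each library by group, with group means as lines. miR-219a-5p lies at or below 0.331 CPM (0, 2 and 0 counts) in the 3 libraries at 24 h, where miR-219a-1-3p is at 13 to 19.4 CPM.

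The gut and liver members differed little between groups. miR-192-5p, a p53-responsive miRNA of intestine, liver and kidney, had 905, 1125 and 1029 counts in untreated libraries, 921, 1252 and 612 at 24 h, and 605, 2051 and 855 at 48 h. Scaled, this was 198 ± 33 CPM in untreated, 254 ± 56.6 CPM at 24 h and 196 ± 20.1 CPM at 48 h (SD, n = 3 each). 24 h library 3 was highest at 317 CPM, untreated library 1 lowest at 169 CPM, and the groups overlapped. Its log2 fold change was 0.36 at 24 h against untreated (SE 0.48, 95% interval -0.69 to 1.41, edgeR adjusted p = 0.823; 0.16 without 24 h library 3), -0.02 at 48 h (-1.07 to 1.03, adjusted p = 0.997) and -0.38 for 48 h against 24 h (-1.43 to 0.67, adjusted p = 0.767).

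miR-194-5p, made from the same cluster and known from differentiated intestinal epithelium, had 570, 808 and 426 counts in untreated libraries, 557, 355 and 379 at 24 h, and 233, 783 and 492 at 48 h. Scaled, this was 114 ± 21.6 CPM in untreated and 87.6 ± 23.5 CPM at 48 h (SD, n = 3 each), and the 24 h libraries spread further. The lowest and the highest level were both at 24 h, 58.8 CPM in library 2 and 196 CPM in library 3, and the groups overlapped. Its log2 fold change was 0.23 at 24 h (SE 0.57, 95% interval -1.02 to 1.47, edgeR adjusted p = 0.905; -0.18 without 24 h library 3), -0.38 at 48 h (adjusted p = 0.997) and -0.60 for 48 h against 24 h (adjusted p = 0.662). Of the 3p strands, miR-194-2-3p, from the hairpin beside Mir192, had 9, 97 and 22 counts in untreated libraries, 19, 60 and 0 at 24 h, and 24, 142 and 25 at 48 h, with library 2 highest in each group. miR-194-1-3p had 1 count in all. The paralog miR-215-5p, beside Mir194-1, had 14 counts in all, and miR-192-3p was listed in no library.

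miR-150-5p, which is high in mature B and T cells and targets Myb, was at 37.4, 5.12 and 21.6 CPM in untreated libraries, 22, 13.4 and 56 CPM at 24 h, and 28.6, 6.92 and 3.23 CPM at 48 h. 24 h library 3 was highest and 48 h library 3 lowest, and the groups overlapped. The log2 fold change was 0.50 at 24 h (SE 0.93, 95% interval -1.53 to 2.53, edgeR adjusted p = 0.886), -0.73 at 48 h (adjusted p = 0.997) and -1.24 for 48 h against 24 h (SE 0.94, interval -3.30 to 0.83, adjusted p = 0.6). Without 24 h library 3 the first was -0.28. The opposite strand, miR-150-3p, had 0, 3 and 0 counts in untreated, 0, 16 and 7 at 24 h, and 0, 3 and 0 at 48 h.

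Of the 10 members, 7 passed the count filter, and miR-1a-3p, miR-133a-3p and miR-206-3p did not. edgeR called 0 of the 453 tested miRNAs at 24 h against untreated (0%), 0 at 48 h against untreated (0%) and 0 for 48 h against 24 h (0%), so 0 of the 7 members were called. At an unadjusted p under 0.05 there were 46 miRNAs (10.2%), 4 (0.883%) and 44 (9.71%), and the members among them were miR-219a-5p in the first and in the last comparison. limma-voom called 0 in each comparison. DESeq2 called 4 (0.883%), 1 (0.221%) and 6 (1.32%), and edgeR with the library number as a block called 3 (0.662%) at 24 h and 0 (0%) at 48 h against untreated. Without the count filter edgeR called 7 (0.636%), 1 (0.0908%) and 16 (1.45%) of all 1101. In DESeq2, in the block fit and without the filter miR-219a-5p was among those called at 24 h.

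By direction, 4 members were higher and 3 lower at 24 h against untreated, with a median log2 fold change of 0.23 beside -0.07 over all 453. At 48 h against untreated 2 were higher and 5 lower (median -0.38 beside 0.03), and for 48 h against 24 h 3 were higher and 4 lower (median -0.38 beside 0.14). The untreated libraries are shared by the first pair of comparisons and the 24 h and the 48 h libraries also enter a pair of comparisons each, so these counts are not independent. Groups that did not overlap were seen for 1 of the 7 members as lower at 24 h, miR-219a-5p, beside 28 of 453 (6.18%). At 48 h against untreated 1 was separate and higher, miR-9-3p, beside 10 of 453 (2.21%). For 48 h against 24 h, miR-9-3p and miR-219a-5p were separate and higher, 2 of 7 beside 47 of 453 (10.4%). For miR-219a-5p this rests on 0, 2 and 0 counts at 24 h and 3 in 48 h library 1.

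**Figure D5:**
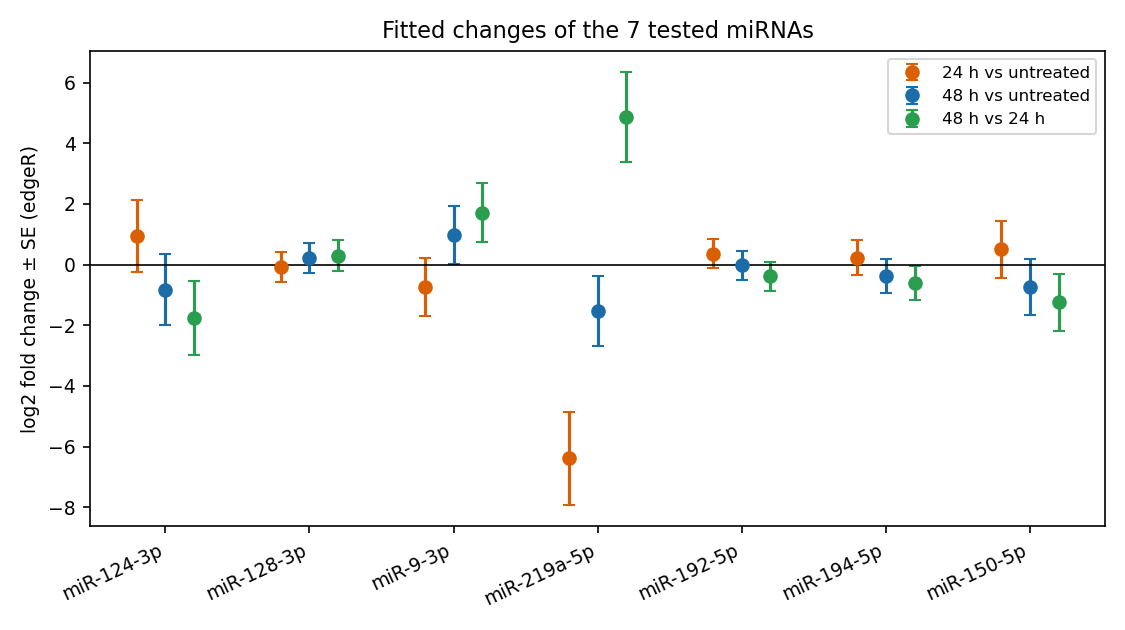
edgeR log2 fold changes (points) with their SE (bars) for the 7 tested members in the 3 comparisons. miR-219a-5p lies farthest from 0, at -6.39 for 24 h against untreated and 4.86 for 48 h against 24 h, where its adjusted p is 0.318 and 0.404, and no other member reaches 2 in size.

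Relatives and other miRNAs of the same tissues gave no call either. Of 27 other arms and paralogs, 17 were listed, 6 were tested and 0 were called in each comparison, with 2 higher and 4 lower each time and medians of -0.20, -0.26 and -0.50. The largest difference among them at 24 h against untreated was that of miR-1b-5p, a strand of the antisense relative of miR-1a, with 0, 8 and 9 counts in untreated, 15, 4 and 62 at 24 h, and 7, 7 and 53 at 48 h. Its log2 fold change at 24 h was 3.39 (edgeR adjusted p = 0.543). miR-128-1-5p was at 60, 130 and 31.3 CPM in untreated, 45, 116 and 49.8 CPM at 24 h, and 69.1, 70.1 and 45.9 CPM at 48 h, so library 2 was highest in each group for this strand and lowest for miR-128-3p. Of 17 other miRNAs known from these tissues, 13 were listed, 7 were tested and 0 were called, with medians of 0.24, -0.13 and 0.06. The most abundant were miR-181a-5p, a lymphocyte-enriched miRNA made in many cells, at a mean of 11962 CPM, miR-31-5p at 56.4 CPM and the neuronal miR-138-5p at 46.1 CPM. miR-138-5p was separate and lower at 24 h (40.6, 36.8 and 28 CPM) against untreated (49.4, 68.1 and 50.2 CPM). So was the muscle miR-499-5p, at 23, 24.2 and 14.5 CPM against 29.2, 35.9 and 37.5 CPM. The other tested miRNAs of this list overlapped, and over all 453 tested miRNAs 6.18% were separate and lower.

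The precursor families of the muscle members, counted separately, did not follow the mature strands in each library. Family mir-133, singled out after its values were seen, had 6, 15 and 2 counts in untreated, 26, 30 and 13 at 24 h, and 8, 15 and 2 at 48 h. Scaled to all counted reads, every 24 h library lay above every other, with a ratio of mean levels of 3.8 against untreated. The groups of the mature miR-133a-3p overlapped. Of 70 families with a mean of at least 10 counts, 5 (7.14%) were separate and higher at 24 h against untreated. For 48 h against 24 h mir-133 had a ratio of 0.273, and 3 of the 70 (4.29%) were separate and lower. Family mir-1 had 12, 1 and 17 counts in untreated, 0, 53 and 18 at 24 h, and 0, 2 and 0 at 48 h, and its groups overlapped at 24 h. The mature miR-1a-3p had 0, 1 and 0 counts, then 11, 1 and 8, then 0, 0 and 0. Family mir-219 had 18, 25 and 2 counts, then 4, 20 and 3, then 6, 42 and 6, so its 24 h libraries overlapped the others, unlike miR-219a-5p.

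Lists that mark other sources of RNA moved as follows. The 7 serum, liver and red cell miRNAs summed to 5080 to 5720 CPM in untreated libraries, 5580 to 9640 CPM at 24 h and 1950 to 6470 CPM at 48 h. Most of this was miR-320-3p (mean 3805 CPM), which was at 3440 to 5160 CPM in 8 libraries and far lower in 48 h library 1, the library with the sum of 1950 CPM. The liver miR-122-5p and the red cell miR-451a followed at means of 1154 and 1016 CPM. The 8 epithelial miRNAs summed to 211 to 307, 187 to 287 and 227 to 333 CPM, and the 7 mesenchymal and endothelial miRNAs to 434 to 2240, 644 to 1610 and 536 to 1050 CPM. These sums overlapped between untreated and silica libraries, but single miRNAs in the lists did not.

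At 24 h against untreated, 1 of 5 tested serum miRNAs was separate and higher, miR-451a, at 630, 148 and 556 CPM in untreated and 1610, 872 and 3380 CPM at 24 h (log2 fold change 2.14, edgeR unadjusted p = 0.00994, adjusted p = 0.386). Of 6 tested mesenchymal miRNAs 1 was separate and higher, miR-143-3p, at 24.6, 6.32 and 14.8 CPM in untreated and 51.4, 57.8 and 96.9 CPM at 24 h (2.17, unadjusted p = 0.00484, adjusted p = 0.386 in edgeR). Among 7 tested epithelial miRNAs, miR-375-3p was separate and higher (2.13, edgeR adjusted p = 0.437), and miR-141-3p (-2.12, adjusted p = 0.437) and miR-200c-3p (-0.54, adjusted p = 0.716) were separate and lower. miR-145a-5p, not tested, was at 0 in the 3 untreated libraries and at 2.84, 0.331 and 2.07 CPM at 24 h. Over all 453 tested miRNAs 10.4% were separate and higher and 6.18% separate and lower in this comparison. For 48 h against 24 h, 3 of the 5 serum miRNAs were separate and lower: miR-122-5p, miR-451a and miR-486a-5p. In that comparison 1 mesenchymal miRNA was separate and lower and 2 epithelial miRNAs separate and higher, beside 10.4% of the 453 each way. At 48 h against untreated 1 epithelial miRNA was separate and higher, beside 2.21%. None of these was called. The part of these sources in the members' levels at 24 h was not tested.

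Likeness across the 9 libraries was measured as Pearson's r of log2 CPM with every other tested miRNA, as a description over libraries that share groups and depth. miR-124-3p was most like miR-100-5p (r = 0.95), miR-204-5p (0.91) and miR-92b-3p (0.90). miR-219a-5p was most like miR-532-3p (0.95), which had 0 CPM in all 3 libraries at 24 h and 13.4 to 52.1 CPM in untreated. miR-150-5p was most like miR-486a-5p (0.92), a red cell miRNA, and miR-9-3p most like miR-7062-5p (0.92). Without the 2 libraries with the most miRNAs listed these leading values were 0.95, 0.97, 0.88 and 0.90. For miR-128-3p the leading value was 0.85, with miR-27b-3p.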

How the data were processed

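The deposited tables, 1 per library, give a read count per small RNA, per the file headers. A further deposited column, headed TPM, holds RPM: the count scaled to 1000000 counted reads, with no length correction. Per the submitters' processing notes the authors used Trim Galore, Bowtie, HTSeq and build mm10, with versions not given. Counts of known mature miRNAs were used, and miRNAs missing from a table were set to 0. RPM was used only for the precursor families. edgeR's filterByExpr (minimum count 10) kept 453 of 1101 miRNAs, which hold at least 99.964% of mature counts in each library. The test was edgeR 4.0.16 (quasi-likelihood, TMM, 1 fit over 9 libraries, 6 residual degrees of freedom) in R 4.3.3. P-values were adjusted by Benjamini-Hochberg over the 453, with a threshold of 0.05. The code was checked on simulated data, with a pass rule only at a spread below that of these data. How many true changes it would call at the spread of these data is not given here. limma 3.58.1 and DESeq2 1.42.0 were alternatives, and scipy 1.17.1 gave the exact permutation tests. The common biological coefficient of variation was 0.756.

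Per the series' design text a group's libraries are independent repetitions, and p-values measure the spread between them. No pair of libraries within a group was a duplicate (lowest chi-square per degree of freedom 193.9). Deviations from the group means were correlated between libraries of different groups. Same-numbered 24 h and untreated libraries gave r = 0.136, 0.439 and 0.149 (numbers 1, 2 and 3), and differently numbered ones -0.301 to 0.16. Same-numbered 48 h and untreated libraries gave 0.152, 0.636 and 0.315, and differently numbered ones -0.532 to 0.36. Between 48 h and 24 h the same numbers gave -0.0679, 0.289 and 0.253, and different numbers -0.348 to 0.0813. Only number 2 exceeded all differently numbered pairs in every comparison. Untreated library 2 and 48 h library 2 are those with the most miRNAs listed, so pairing by number is not settled. The labels state no pairing.

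All 10 members, the tested relatives, the other arm of a member with at least 10 counts in a library, and the 3 most abundant other miRNAs of the same tissues are named. Others were named after their values were seen. The members and lists were chosen with earlier results of these data known.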

Additional observations from a re-analysis of the deposited data

How the results depend on the processing

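Over the 3 comparisons the number of mature miRNAs that edgeR called was 0. Without the count filter it was 7 at 24 h against untreated, 1 at 48 h against untreated and 16 for 48 h against 24 h. With DESeq2 it was 4, 1 and 6, and with the replicate number as a block it was 3, 0 and 3. With the first pair of groups fitted alone it was 1 at 24 h. Leaving out single libraries gave 0 to 1 at 24 h against untreated (1 without 48 h library 1 or 2), 0 at 48 h against untreated and 0 to 1 for 48 h against 24 h (1 without 48 h library 1). Without both libraries that listed the most miRNAs, a choice made after seeing the data, it was 0 in each comparison. As a share of all counted reads, the members summed to 0.0319% in untreated libraries, 0.0292% at 24 h and 0.0328% at 48 h. Of 356 member fold changes under alternatives, 339 kept direction and call, 4 came to pass the test and 13 turned direction. miR-219a-5p was the member that came to pass. With the replicate block it changed no other member's call. The direction turned for values near 0 or on leaving out 1 library, with the cause not tested. At 48 h against untreated miR-192-5p was 0.05 with all counted reads as library size, 0.03 without the filter and 0.002 in limma-voom, and -0.16 to 0.1 leaving out single libraries. At 24 h against untreated miR-194-5p was -0.08 with all counted reads and -0.18 to 0.55 leaving out single libraries. Leaving out single libraries gave ranges at 24 h of -0.33 to 2.69 for miR-124-3p, -0.27 to 0.2 for miR-128-3p and -0.28 to 1.13 for miR-150-5p. At 48 h against untreated they were -1.58 to 0.93 for miR-124-3p and -2.05 to 0.21 for miR-219a-5p. Depth limits miR-206-3p, with at most 2 counts in a library. miR-1a-3p and miR-133a-3p reached 11 and 14 counts in single libraries, and 0 in others.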
